A study of Homo sapiens with 36 samples.

Results

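The comparison described here asked which genes of human monocytic cells answered elevated CO2 differently once lipopolysaccharide (LPS, a component of Gram-negative bacterial walls) was present. It used all 36 of the 36 libraries, 18 of them with LPS, and took for each gene the CO2 effect with LPS minus the CO2 effect without LPS, averaged over 3 cell lines. This difference is called the interaction, and all 57500 genes of the count files were candidates, of which 17720 passed a filter on low counts and were tested. The cells were THP-1, a monocytic line from a human leukaemia. They expressed either a control hairpin RNA without a target (shNT), a hairpin against NR4A2 (shNR4A2) or a hairpin against NR4A3 (shNR4A3). NR4A2 and NR4A3 are orphan nuclear receptors that act as early-response transcription factors. Every line was kept for 4 h in medium equilibrated with 5% or 10% CO2 and buffered against the pH change, and received no LPS or 2.5 µg/ml LPS for the last 2 h, which gave 12 conditions with 3 libraries each. All cells carry a hairpin, untransduced cells were not part of the design, and each knockdown is represented by 1 stably transduced line. The study describes its RNA-seq data as coming from individual experiments, while the labels do not say which libraries shared an experiment, and p-values measure the spread between the 3 libraries of a condition.

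LPS is recognised by TLR4 with its partners CD14 and LY96, and the signal runs through MYD88, the IRAK kinases, TRAF6 and the TAB proteins to NF-kB and the MAP kinases, which switch on cytokine, chemokine and feedback genes within minutes to hours. Elevated CO2 (hypercapnia) changes transcription in monocytes on its own, and buffered medium is used to separate the gas from acidity. An interaction shows genes for which the joint exposure gave a level that the sum of the separate log2 effects would not give. A positive value means that the change at 10% CO2 was more positive with LPS than without, which is the same quantity as a larger LPS fold at 10% than at 5% CO2. An interaction of 1 on the log2 scale is a 2-fold difference between the folds.

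Total counts were 16171161 to 23929138 per library, and no library was farther than 0.468 (log2, root mean square over genes) from the others of its condition, the smallest distance being 0.339. In every CO2 and LPS state NR4A2 was 32.2% to 53% of its shNT level in the shNR4A2 line, with all knockdown libraries below all shNT libraries. NR4A3 was 16.9% to 54.5% of its shNT level in the shNR4A3 line in 3 states, and 78% with overlapping libraries at 10% CO2 without LPS. The 10 monocyte markers summed to 2930 to 6520 TPM (transcript abundance scaled for gene length and library total) over the libraries, and none of them was called. T cell, erythroid and epithelial and fibroblast markers summed to at most 2.18 TPM in any library. The 5 B cell markers summed to 3.94 to 13.6 TPM, with the defining MS4A1 and CD22 under 1 TPM throughout, and this did not differ in the interaction at the adjusted threshold for the 3 members tested.

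Of the 17720 genes, 353 (1.99%) had an interaction at an adjusted p under 0.05 and are referred to as called (edgeR quasi-likelihood test, Benjamini-Hochberg adjustment). The interaction was above 0 in 211 (1.19%) and below 0 in 142 (0.801%), and 2517 genes (14.2%) had an unadjusted p under 0.05. Scaling by library size alone in place of TMM gave 185 above and 199 below, so that the share above 0 moved from 59.8% to 48.2%. Most of the differences were moderate. The absolute interaction was 1 or more on the log2 scale in 22 genes above and 5 below 0, and the fold was under 1.4 in 84 and 78. At the threshold, MS4A7 (adjusted p = 0.04973) and MLPH (0.04976) were the last genes inside, and SNX24 (0.05001) and USP49 (0.05027) the first outside.

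The strongest statistical support belonged to STARD4, which encodes a cytosolic sterol carrier. Over the 9 libraries of each state, STARD4 was 11.9 to 15.02 TPM at 5% CO2 (median 14.3) and 9.09 to 11.5 TPM at 10% CO2 (median 9.73). With LPS it was 37.2 to 58.5 TPM at 5% (median 47.7) and 45.1 to 85.0 TPM at 10% (median 62.3). Without LPS the 9 libraries at 10% CO2 lay below all 9 at 5% CO2, while with LPS they lay higher in each line, with overlap in 1 line. CO2 thus lowered STARD4 in resting cells (log2 -0.40 ± 0.08, SE) and raised it in LPS-treated cells (0.48 ± 0.07), and the interaction was 0.88 ± 0.10 (edgeR adjusted p = 8.47e-06).

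SIK3, a salt-inducible kinase that phosphorylates CREB coactivators, was 16.8 to 23.3 TPM at 5% and 14.1 to 20.3 TPM at 10% CO2 without LPS, and 16.01 to 24.6 and 21.1 to 42.1 TPM with LPS. With LPS the 10% libraries stood above the 5% libraries within each of the 3 lines, while the ranges over all lines overlapped. The interaction of SIK3 was 0.77 ± 0.09 (edgeR adjusted p = 8.47e-06).

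On the other side, KLHL6, a substrate adaptor of a cullin ubiquitin ligase, was 9.32 to 14.3 TPM at 5% and 9.92 to 12.3 TPM at 10% CO2 in resting cells, which overlapped. With LPS it was 3.45 to 6.96 TPM at 5% and 2.66 to 4.13 TPM at 10% CO2, lower at 10% without overlap inside each line. The interaction was -0.71 ± 0.11 (edgeR adjusted p = 0.00044). IL6R, the interleukin-6 receptor chain, was 274 to 415 and 297 to 479 TPM without LPS and 139 to 272 and 106 to 166 TPM with LPS at 5% and 10% CO2, with an interaction of -0.50 ± 0.09 (edgeR adjusted p = 0.00178). For both genes LPS lowered the transcript, and lowered it further at 10% CO2.

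The promoter windows of these 4 genes, the first 2 by adjusted p on each side, are given so that the regions upstream of the most clearly separated genes can be read. They come from RefSeq (GRCh38.p14), run 5′ to 3′ on the strand of the gene from 250 bases before to 50 bases after the start, and have in capitals any match to 10 motifs searched on both strands.
STARD4, chr5:111512486-111512785, minus strand: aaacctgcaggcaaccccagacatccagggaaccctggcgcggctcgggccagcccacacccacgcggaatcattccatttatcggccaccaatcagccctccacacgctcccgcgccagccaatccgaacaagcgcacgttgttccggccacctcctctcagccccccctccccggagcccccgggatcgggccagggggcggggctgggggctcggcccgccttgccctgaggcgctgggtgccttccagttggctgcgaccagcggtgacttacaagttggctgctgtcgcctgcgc
SIK3, chr11:117098379-117098678, minus strand: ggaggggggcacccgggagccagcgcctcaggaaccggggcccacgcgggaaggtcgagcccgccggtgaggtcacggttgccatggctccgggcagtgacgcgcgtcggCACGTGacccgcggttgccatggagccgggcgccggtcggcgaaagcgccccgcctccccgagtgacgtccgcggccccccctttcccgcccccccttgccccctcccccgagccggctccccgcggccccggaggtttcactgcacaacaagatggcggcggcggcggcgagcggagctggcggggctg
KLHL6, chr3:183555657-183555956, minus strand: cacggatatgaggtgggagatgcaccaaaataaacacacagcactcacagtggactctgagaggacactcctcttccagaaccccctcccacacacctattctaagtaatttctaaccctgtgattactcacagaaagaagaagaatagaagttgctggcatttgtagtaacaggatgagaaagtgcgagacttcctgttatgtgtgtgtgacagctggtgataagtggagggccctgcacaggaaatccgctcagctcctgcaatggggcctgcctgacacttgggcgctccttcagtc
IL6R, chr1:154405093-154405392, plus strand: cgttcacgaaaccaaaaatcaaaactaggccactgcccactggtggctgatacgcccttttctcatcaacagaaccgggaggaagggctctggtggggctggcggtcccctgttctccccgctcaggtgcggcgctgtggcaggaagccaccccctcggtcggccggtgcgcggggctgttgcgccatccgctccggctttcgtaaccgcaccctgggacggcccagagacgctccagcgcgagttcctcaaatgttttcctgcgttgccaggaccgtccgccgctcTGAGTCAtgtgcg
SIK3 held an E-box (CACGTG) and IL6R an AP-1 motif (TGANTCA) after its start, and STARD4 and KLHL6 held none of the 10. Over the genes with a promoter in this table (173 of 211 above 0, 115 of 142 below 0 and 12091 of 17720 tested), the ETS motif CCGGAAG stood in 9.25%, 9.57% and 18.1%, and the EGR motif GCGNGGGCG in 20.8%, 23.5% and 15%. The kB motif stood in 9.25%, 8.7% and 8.89%, AP-1 in 4.05%, 7.83% and 4.75%, and the CRE TGACGTCA in 0%, 1.74% and 3.04%. The E-box stood in 8.67%, 11.3% and 9.74%, the ISRE in 3.47%, 0% and 2.89%, the ATF4-C/EBP motif TGATGNAA in 1.16%, 2.61% and 1.8%, the CArG box in 1.73%, 0% and 1.08%, and the heat shock element in 0.578%, 0% and 0.314%. Median GC content of the windows was 69%, 69.3% and 65%. These shares are a description of short windows and no test was made of them.

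The called genes reached their interaction from different starting effects. In the 211 genes above 0 the median CO2 effect was -0.14 (log2) without LPS and 0.42 with LPS, and the median LPS effect was 0.65 at 5% and 1.31 at 10% CO2. In the 142 below 0 the medians were 0.02 and -0.47 for CO2, and -0.52 and -1.03 for LPS. Over all genes tested the medians of these 4 effects lay between -0.02 and 0.00 and the median interaction was 0.00. The 4 effects are parts of the interaction and share its libraries, so they describe the called genes and are no separate evidence. Called on their own, the pooled CO2 effect passed in 3082 genes without LPS (17.4%) and in 5199 with LPS (29.3%), the pooled LPS effect in 8632 at 5% CO2 (48.7%) and in 10113 at 10% CO2 (57.1%).

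**Figure D1:**
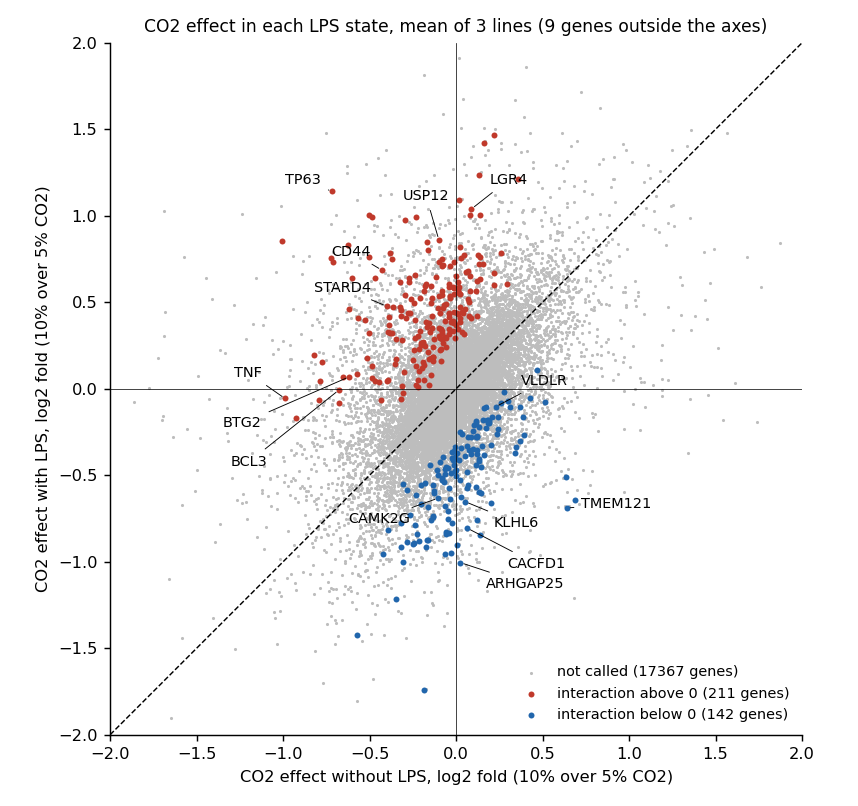
Pooled CO2 effect (log2 fold, 10% over 5% CO2, mean of 3 lines) without LPS on the x axis and with LPS on the y axis, 1 point per gene tested. Points on the dashed line have no interaction; the 211 red genes lie above it and the 142 blue genes below it by construction. TNF, BTG2 and BCL3 sit near 0 on the y axis and left of 0 on the x axis, while LGR4 and USP12 sit near 0 on the x axis.

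In LGR4, USP12, PHLPP1, FRY and GPC4 the CO2 effect passed the test with LPS and did not without it. LGR4, a receptor for R-spondins that heightens Wnt signalling, was 9.68 to 34.2 and 10.7 to 33.0 TPM at 5% and 10% CO2 without LPS, and 12.4 to 45.8 and 26.8 to 88.7 TPM with LPS. The lines differed in level, from a mean of 30.9 ± 3.4 TPM (SD, n = 3) in shNT to 11.8 ± 1.8 TPM (SD, n = 3) in shNR4A3 at 5% CO2 without LPS, but in every line the 10% libraries with LPS lay above the 5% libraries with LPS. CO2 changed LGR4 by 0.09 ± 0.09 (log2) without and 1.04 ± 0.08 with LPS, an interaction of 0.95 ± 0.12 (edgeR adjusted p = 2.09e-05).

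USP12, a deubiquitinase, was 24.8 to 44.6 and 26.3 to 40.5 TPM without LPS, and 67.7 to 108 and 105 to 176 TPM with LPS. Its interaction was 0.96 ± 0.14 (edgeR adjusted p = 0.000223). PHLPP1, a phosphatase of AKT, and FRY had interactions of 0.63 ± 0.09 and 0.61 ± 0.10, with CO2 effects of -0.04 and 0.01 without LPS and 0.59 and 0.62 with LPS. GPC4, a glypican, was 20.7 to 32.2 TPM at 5% CO2 with LPS and 33.9 to 40.9 TPM at 10% CO2 with LPS, so that the 9 libraries of each state did not overlap. Its CO2 effect was -0.14 ± 0.08 without LPS, and its interaction 0.67 ± 0.11 (edgeR adjusted p = 0.000668).

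In CD44 and PTPN1, as in STARD4, CO2 effects of opposite sign passed the test in the 2 states. CD44, the hyaluronan receptor, was 37.2 to 73.8 TPM at 5% and 26.8 to 52.7 TPM at 10% CO2 in resting cells, and 70.3 to 159 and 98.5 to 257 TPM with LPS. Within each line the 10% libraries were above the 5% libraries with LPS, and in 2 lines they were below them without LPS. CO2 lowered CD44 without LPS (-0.43 ± 0.11) and raised it with LPS (0.69 ± 0.11), and the interaction was 1.11 ± 0.15 (edgeR adjusted p = 0.000223). PTPN1, a tyrosine phosphatase, moved likewise, by -0.17 ± 0.06 without and 0.36 ± 0.06 with LPS.

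Among named genes that reached 1 TPM in a condition, the largest interactions above 0 were those of TP63, BMP6, STAT4, LINC02005 and PDGFA. TP63, a transcription factor of the p53 family, was 0.267 to 0.895 and 0.196 to 0.632 TPM without LPS, and 0.359 to 1.38 and 0.728 to 2.29 TPM with LPS, an interaction of 1.86 ± 0.36 (edgeR adjusted p = 0.00486). The 5% and 10% libraries were apart in 1 line only, with or without LPS. STAT4, a signal transducer of interleukin-12, was 2.25 to 8.43 and 1.56 to 4.09 TPM without LPS and 9.85 to 30.3 and 23.3 to 44.4 TPM with LPS, an interaction of 1.44 ± 0.28 (edgeR adjusted p = 0.00628).

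The growth factors BMP6 and PDGFA had 1.48 ± 0.37 and 1.26 ± 0.22, and the long non-coding RNA LINC02005 with 1.27 ± 0.28. BMP6 had medians of 0.549 and 0.333 TPM without LPS and 1.963 and 3.79 TPM with LPS. It was no longer called without shNT 5% CO2 replicate 3, shNR4A2 5% CO2 replicate 1, shNR4A3 5% CO2 replicate 3 or shNR4A3 10% CO2 replicate 2, its adjusted p reaching 0.0611.

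In TNF, BTG2, RELB and BCL3, CO2 lowered the resting level and its effect did not pass the test with LPS. TNF was 19.3 to 96.8 TPM at 5% CO2 (median 55.6) and 9.51 to 46.7 TPM at 10% CO2 (median 24.3) in resting cells. With LPS it was 1712 to 2223 TPM (median 2026) and 1653 to 2133 TPM (median 1813), which overlapped in every line. CO2 lowered resting TNF (-0.99 ± 0.17) and gave -0.06 ± 0.15 with LPS, an interaction of 0.93 ± 0.22 (edgeR adjusted p = 0.0257). On the scale of LPS folds this reads as 45.3-fold at 5% and 86.5-fold at 10% CO2.

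BTG2, an antiproliferative factor that promotes mRNA deadenylation, was 33.5 to 72.0 and 15.9 to 45.8 TPM without LPS, lower at 10% without overlap inside each line, and 1338 to 2282 and 1287 to 2486 TPM with LPS. Its CO2 effects were -0.62 ± 0.07 and 0.07 ± 0.07, and its interaction 0.69 ± 0.10 (edgeR adjusted p = 0.000136). RELB, the NF-kB subunit of the non-canonical arm, was 29.9 to 45.3 and 20.4 to 29.4 TPM without LPS, where the states did not overlap, and 283 to 433 and 342 to 404 TPM with LPS. BCL3, an IkB protein that works in the nucleus, was 17.3 to 30.0 and 8.57 to 21.5 TPM without LPS and 46.2 to 99.2 and 38.8 to 108 TPM with LPS.

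**Figure D2:**
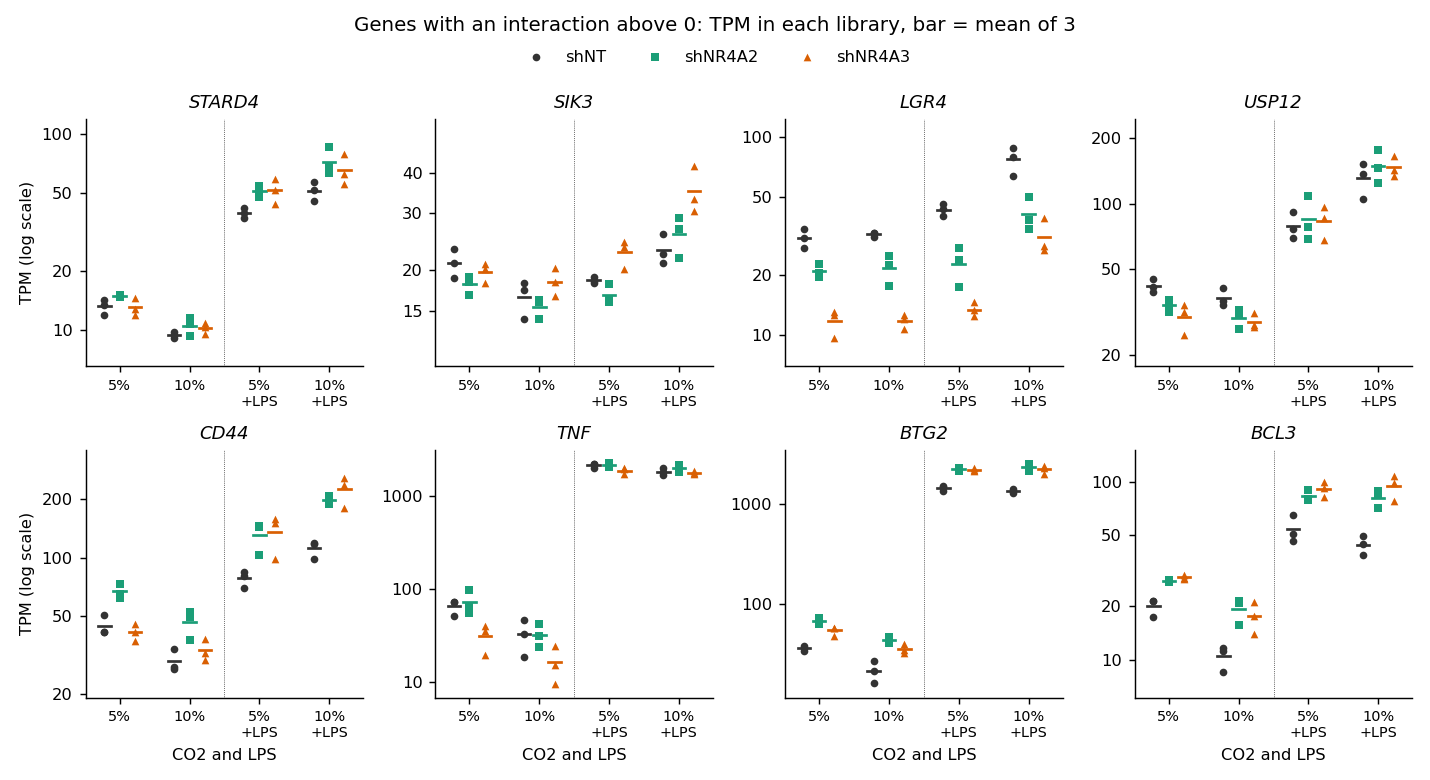
TPM on log axes in each library for 8 genes with an interaction above 0, by CO2 and LPS (x axis), with 3 libraries per line and condition and a bar at their mean. At 10% CO2, STARD4 and CD44 are lower without LPS and higher with it, SIK3, LGR4 and USP12 are higher with LPS, and the means of TNF, BTG2 and BCL3 are lower without LPS.

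Of the genes below 0, HRH2, SELPLG, CAMK2G, GIT1 and UBTF were lowered by LPS, and 10% CO2 lowered them when LPS was present. HRH2, the histamine H2 receptor, was 10.9 to 15.7 and 10.4 to 16.8 TPM without LPS, and 1.93 to 6.197 and 0.888 to 2.71 TPM with LPS. Its interaction was -0.98 ± 0.19 (edgeR adjusted p = 0.00506). SELPLG, the P-selectin ligand, was 64.3 to 101 and 64.2 to 88.8 TPM without LPS, and 24.8 to 53.2 and 17.0 to 27.5 TPM with LPS, lower at 10% within each line.

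CAMK2G, a calcium/calmodulin-dependent kinase subunit, was 18.4 to 22.1 and 15.5 to 20.8 TPM without LPS, which overlapped, and 10.9 to 16.3 and 6.67 to 9.38 TPM with LPS, which did not over all 9 libraries a state. Its CO2 effect was -0.10 ± 0.07 without and -0.63 ± 0.07 with LPS, and its interaction -0.53 ± 0.09 (edgeR adjusted p = 0.00234). GIT1, a GTPase-activating protein for ARF proteins, was 48.9 to 63.8 and 43.6 to 68.6 TPM without LPS, and 28.2 to 46.4 and 20.5 to 27.0 TPM with LPS, again with no overlap in LPS-treated cells. UBTF, a transcription factor of RNA polymerase I, had the same pattern at 158 to 226 and 136 to 178 TPM without LPS and 79.0 to 121 and 50.7 to 72.0 TPM with LPS (interaction -0.42 ± 0.10, edgeR adjusted p = 0.0196).

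Others named by p were SLC25A42, a mitochondrial carrier of coenzyme A (-0.75 ± 0.15), GIMAP6, a GTPase (-0.40 ± 0.08), and CACFD1 (-0.87 ± 0.17). CACFD1 differed in form. At 5% CO2 it was 4.41 to 7.65 TPM without and 7.81 to 19.2 TPM with LPS, and at 10% CO2 5.59 to 8.70 and 5.19 to 10.2 TPM, for pooled LPS effects of 1.35 and 0.48 (log2). The lines differed in direction at 10% CO2, where the mean went from 7.54 to 5.76 TPM with LPS in shNT, from 5.71 to 9.06 TPM in shNR4A2 and from 6.10 to 7.84 TPM in shNR4A3. PLK2, a polo-like kinase, rose with LPS at both CO2 levels and was lower at 10% CO2, at 43.1 to 86.1 and 23.3 to 39.4 TPM with LPS. Its interaction was -0.45 ± 0.11 (edgeR adjusted p = 0.0221).

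The largest negative values of named genes belonged to TMEM121 (-1.33 ± 0.31), ARHGAP25, a GTPase-activating protein for Rac (-1.03 ± 0.21), HRH2, the homeobox gene DLX1 (-0.90 ± 0.20) and CRACDL (-0.89 ± 0.23). TMEM121 was raised by CO2 without LPS (0.64 ± 0.18) and lowered with it (-0.69 ± 0.25), at 4.06 TPM or less in all libraries. CRACDL was no longer called without shNT 5% CO2 + LPS replicate 1, shNT 10% CO2 + LPS replicate 2, shNR4A2 5% CO2 + LPS replicate 2, shNR4A3 5% CO2 + LPS replicate 2, shNR4A3 10% CO2 replicate 3 or shNR4A3 10% CO2 + LPS replicate 1, with an adjusted p of up to 0.0867.

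**Figure D3:**
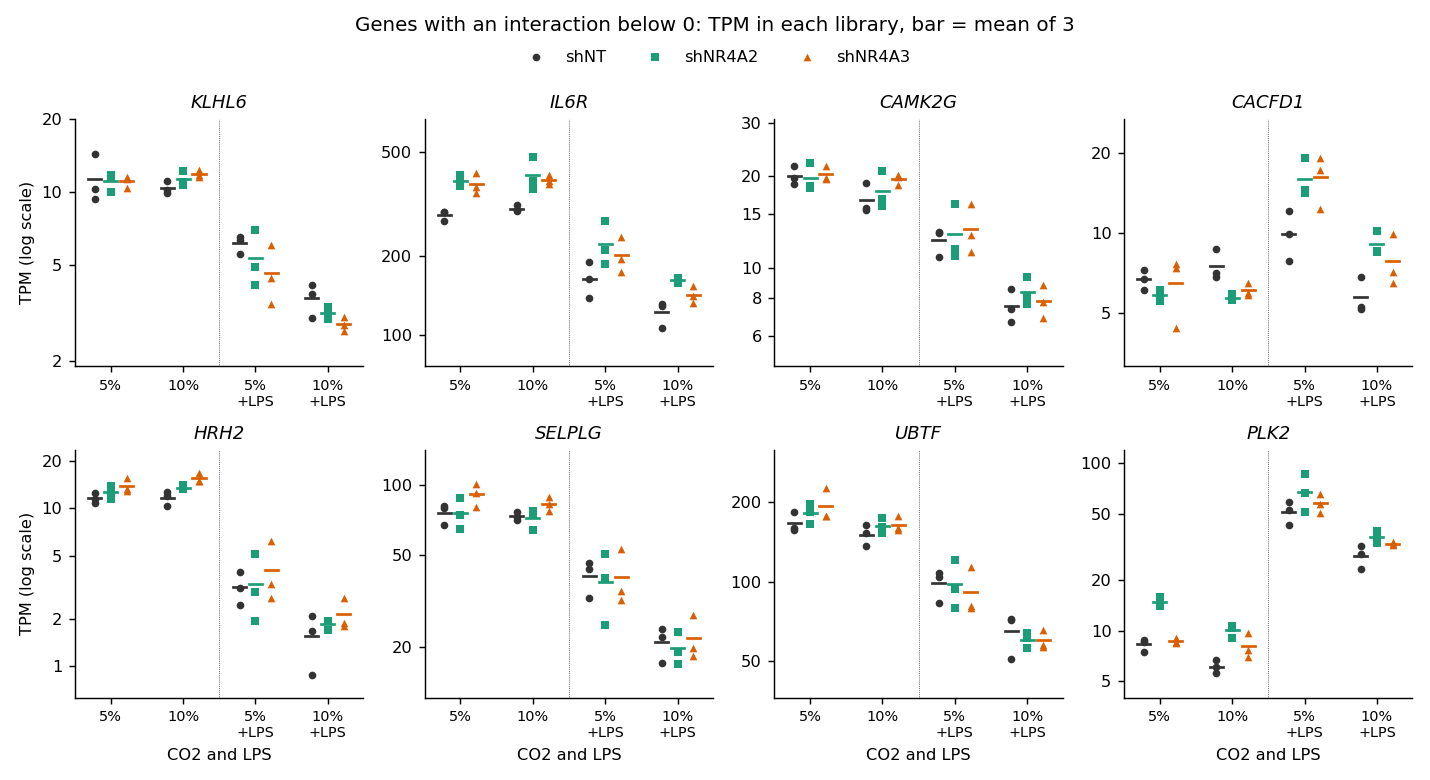
TPM on log axes in each library for 8 genes with an interaction below 0, drawn as for the genes above 0. In KLHL6, IL6R, CAMK2G, HRH2, SELPLG and UBTF the 10% and 5% CO2 libraries overlap without LPS over all lines, and the mean at 10% is lower with LPS in each line; PLK2 is higher with LPS in every line, and CACFD1 is higher with LPS in every line at 5% CO2 but lower in shNT at 10% CO2.

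The 3 lines were then compared. The interaction had the pooled sign in all 3 lines for all 211 genes above and all 142 below 0, and an unadjusted p under 0.05 in each of the 3 lines for 95 and 50 of them. These lines are the parts of the mean by which the genes were called, so agreement is in part built in. Tested line by line, 0 genes were called in shNT (0.00%), 1 in shNR4A2 (0.00564%) and 1 in shNR4A3 (0.00564%), while 890 (5.02%), 1214 (6.85%) and 886 (5.00%) had an unadjusted p under 0.05. The line difference itself passed in 0 genes with edgeR (207, or 1.17%, at an unadjusted p under 0.05) and in 0 with DESeq2. A difference between lines was thus not detected with 3 libraries per condition in a fit that left replicate numbers out. This does not show that the lines respond alike. With the replicate number in the edgeR fit, 287 genes had an unadjusted p under 0.05 for the line difference. The 1.17% also lies below the share that a threshold of 0.05 gives without any difference, and the reason was not tested.

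**Figure D4:**
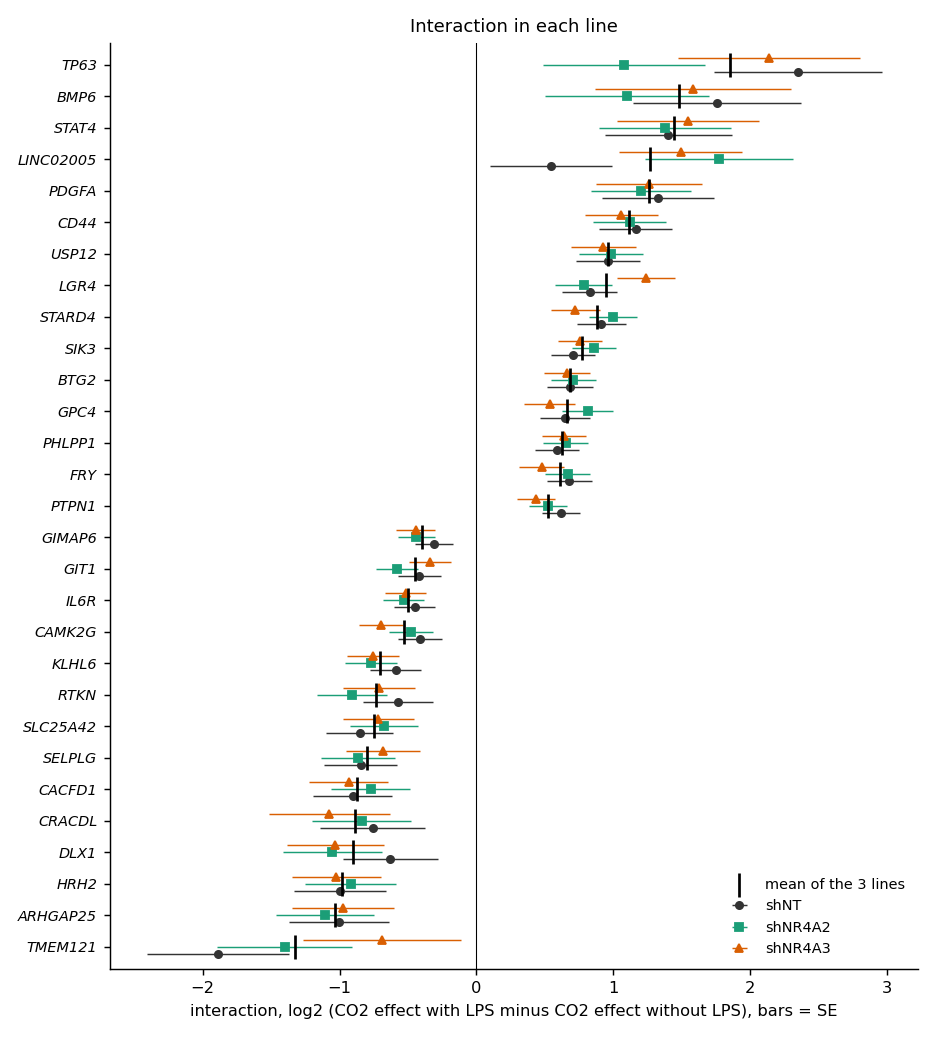
Interaction (log2) in each of the 3 lines with its SE for the genes named by p or by size, from the fit to all 36 libraries; the black tick is their mean. All points lie on the side of the mean by construction, since these genes were named only with the same sign in all 3 lines. TP63, LINC02005 and TMEM121 show the widest spread between lines.

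Libraries that the call did not use were read by calling genes in 2 lines and reading them in the third, fitted separately. With shNT held out, 7 genes were called in the other lines, 7 had the same sign in shNT and 6 of them an unadjusted p under 0.05. With shNR4A2 held out, 28 were called, 28 had the same sign and 25 an unadjusted p under 0.05. With shNR4A3 held out, 87 were called, 81 (93.1%) had the same sign and 54 (62.1%) an unadjusted p under 0.05. Over all genes tested the same sign was found in 64.1%, 67.5% and 61.0%, with an unadjusted p under 0.05 in 5.24%, 4.42% and 4.80%. The lines were not independent in this check, since deviations of same-numbered libraries from different lines correlated above 0.1 in 106 of 144 pairs (median 0.347), against 47 of 288 pairs with different numbers (median -0.182). The median interaction, signed by the calling lines, was 0.71, 0.73 and 0.53 in the held-out line against 0.80, 0.74 and 0.76 in the calling lines.

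NR4A3 stood out among the targeted receptors in its values by line. In shNT cells it was 0.587 ± 0.094 TPM at 5% and 0.263 ± 0.101 TPM at 10% CO2 without LPS (SD, n = 3), and 31.7 ± 0.71 and 34.0 ± 4.1 TPM with LPS. In shNR4A3 cells it was 0.0990 ± 0.0636 and 0.205 ± 0.024 TPM without LPS (SD, n = 3) and 17.3 ± 0.81 and 16.1 ± 3.7 TPM with LPS. The interaction was 1.27 in shNT, 1.69 in shNR4A2 and -1.09 in shNR4A3, pooled 0.63 ± 0.29 (edgeR adjusted p = 0.318), and the line difference had an unadjusted p of 0.00144 that did not pass adjustment. Without the shNR4A3 line the pooled interaction of NR4A3 was 1.48 (edgeR adjusted p = 0.00634). This value rests on leaving out the line of opposite sign and is no separate evidence. In that line NR4A3 is the target of the hairpin. Without LPS NR4A3 was low in every line, at 0.0315 to 1.41 TPM at 5% and 0.176 to 0.566 TPM at 10% CO2 over all lines. The interactions of all 3 lines, and the value without shNR4A3, thus rest on low resting levels. NR4A2 and NR4A1 had interactions of 0.27 ± 0.17 and 0.38 ± 0.15, with edgeR adjusted p of 0.521 and 0.202.

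Pathway lists were described by their counts beside the background of 1.19% and 0.801% of all genes. The median interaction over all genes tested was -0.004, so values above and below 0 were about equally frequent among them. Of the TLR4 receptor and its adaptors, 2 of 14 tested members were called above 0 and 0 below. These were TAB2, which couples TRAF6 to the kinase TAK1 (0.47 ± 0.09), and IRAK2, a kinase of the MYD88 complex (0.83 ± 0.21). IRAK2 was 6.39 to 11.9 and 4.41 to 8.24 TPM without LPS and 115 to 264 and 148 to 289 TPM with LPS, and lost its call without any of 15 single libraries, with an adjusted p of at most 0.0689. MYD88 had 0.27 ± 0.09 and TRAF6 0.30 ± 0.09, and TLR4, which is given after its value was seen, -0.25 ± 0.19. None of these was called, and the median of the list was 0.04. Outside this list TAB1, another partner of TAK1, was called below 0, though not with every single library left out.

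Among NF-kB subunits and inhibitors, 3 of 19 were called above 0 and 0 below, with a list median of 0.22 and 17 of 19 values above 0. They were BCL3 (0.67 ± 0.14), RELB (0.66 ± 0.14) and TNIP1, an inhibitor that binds A20 (0.56 ± 0.14). TNIP1 was 69.6 to 95.8 and 56.3 to 87.4 TPM without LPS and 235 to 419 and 313 to 488 TPM with LPS. REL, NFKB1 and NFKBIA gave 0.48 ± 0.15, 0.50 ± 0.17 and 0.25 ± 0.09, not called.

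Of 19 cytokines 2 were called above 0, TNF and LTB, the membrane-bound lymphotoxin beta. LTB was 22.4 to 45.2 and 16.9 to 33.9 TPM without LPS and 93.7 to 154 and 145 to 217 TPM with LPS, higher at 10% within each line, an interaction of 0.75 ± 0.15 (edgeR adjusted p = 0.00768). The median of the list was 0.43, and 0.51 without IL6, which held 3 or fewer counts over the 9 libraries of a state. CSF1, at 0.69 ± 0.26, and IL23A, at 0.63 ± 0.24, were not called. None of 15 chemokines was called, at a median of 0.28, the values with the smallest p being CXCL1 (0.93 ± 0.34) and CXCL8 (0.59 ± 0.24).

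Of 26 genes in the list of immediate-early transcription factors, which also holds the response gene IER3, 0 were called. An unadjusted p under 0.05 was found in 9 of them, beside 14.2% of all genes tested. IER3 (0.92 ± 0.26, edgeR adjusted p = 0.0542) and KLF10 (0.48 ± 0.13, edgeR adjusted p = 0.056) lay just outside. The list of MAPK phosphatases and mRNA decay factors, which also holds SOCS3 although it is neither, had 2 of 25 above and 2 below 0. BTG2 and SOCS3, the inhibitor of cytokine receptor signalling, were above, SOCS3 at 7.10 to 11.4 and 4.40 to 8.40 TPM without and 261 to 441 and 285 to 507 TPM with LPS (0.69 ± 0.18).

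ZC3H12D, an RNase of the regnase family (-0.67 ± 0.15), and the phosphatase DUSP14 (-0.34 ± 0.09) were below. ZC3H12D gave -0.77, -1.11 and -0.14 in shNT, shNR4A2 and shNR4A3, and was the only called gene whose line difference had an unadjusted p under 0.05 (0.0351). SOCS3 lost its call without any of 21 single libraries (adjusted p of at most 0.0876) and DUSP14 without any of 12 (at most 0.0738).

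Of 28 interferon genes 2 were called above 0 at a list median of 0.24. GBP2, a guanylate-binding protein, was 2.06 to 6.53 and 1.06 to 5.93 TPM without LPS and 19.5 to 62.6 and 26.6 to 83.1 TPM with LPS (0.84 ± 0.17). IRF9, the DNA-binding part of the type I interferon complex, was 4.14 to 6.201 and 3.20 to 4.47 TPM without LPS and 4.05 to 8.40 and 5.23 to 9.56 TPM with LPS (0.64 ± 0.15). IFNB1 held 3 or fewer counts over a state and gives no usable value, and the median without it was 0.245.

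**Figure D5:**
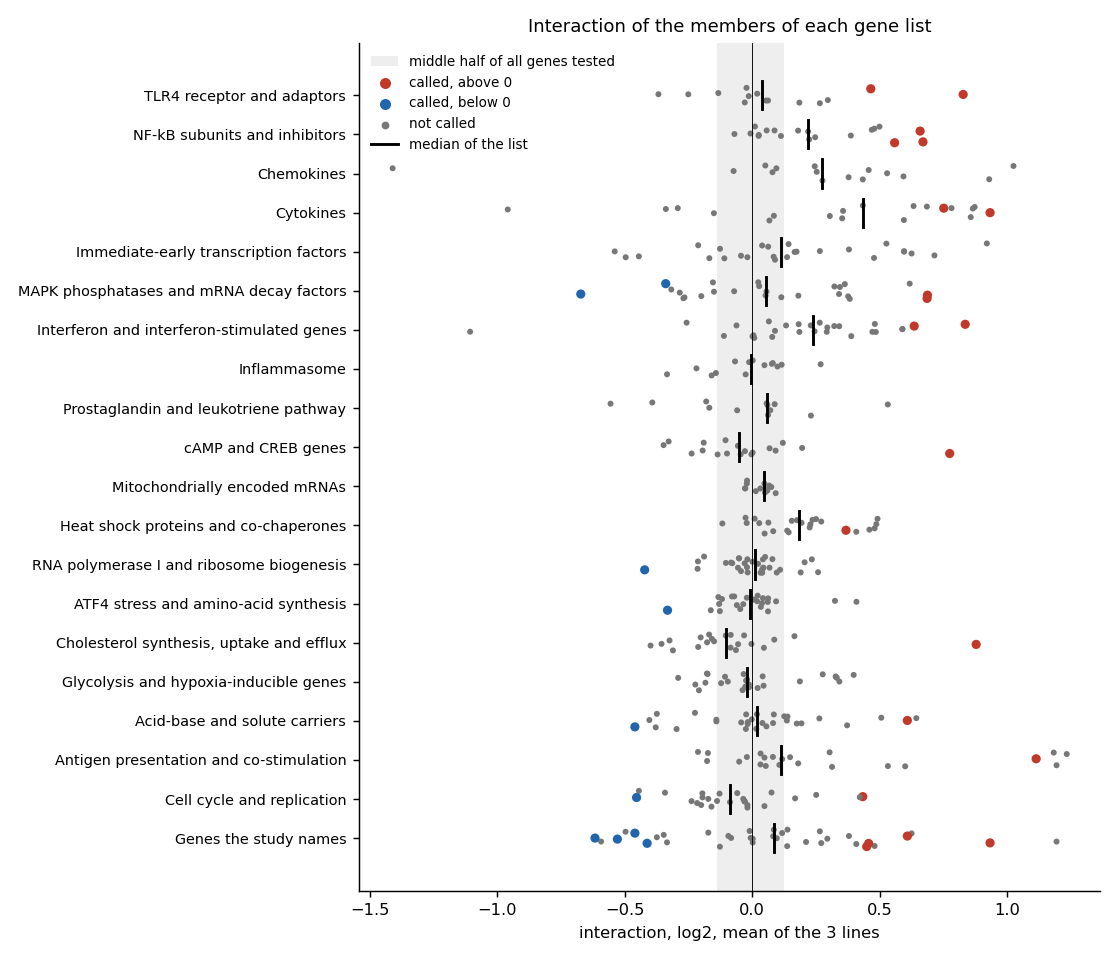
Interaction (log2, mean of the 3 lines) of each tested member of 20 gene lists, 1 point per gene, with called genes in red (above 0) or blue (below 0), the list median as a black bar and the range between the quartiles of all genes tested in grey. The cytokine list has the highest median (0.43) and the mitochondrially encoded list the narrowest range.

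In the lists of other functions, SIK3 was the 1 called gene of 18 in the cAMP and CREB list and STARD4 the 1 of 21 in the cholesterol list, whose median was -0.10 with 4 of 21 above 0. DNAJB6, a J-domain co-chaperone, was the 1 of 24 heat shock genes (0.37 ± 0.08), with a list median of 0.18 and 21 of 24 values above 0. CD44 was the 1 of 22 in antigen presentation and co-stimulation. Of 30 acid-base and solute carriers, SLC39A8, a zinc importer, was above 0 (0.61 ± 0.15) and SLC17A5, the lysosomal exporter of sialic acid, below (-0.46 ± 0.12).

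SLC39A8 was 28.6 to 54.1 and 29.9 to 51.9 TPM without LPS and 49.0 to 91.3 and 87.6 to 127 TPM with LPS, higher at 10% within each line. It lost its call without shNT 5% CO2 + LPS replicate 2, shNT 10% CO2 replicate 3 or shNT 10% CO2 + LPS replicate 2 (adjusted p of at most 0.0533). SLC17A5 lost its call without any of 12 single libraries (adjusted p of at most 0.0628). CCNE2, cyclin E2, was above 0 (0.43 ± 0.11) and PLK2 below among 25 cell cycle genes, CCNE2 losing its call without any of 12 single libraries (adjusted p of at most 0.0654). VLDLR, the very low density lipoprotein receptor, was the 1 of 24 ATF4 stress genes (-0.33 ± 0.09) and lost its call without any of 17 (adjusted p of at most 0.0801). UBTF was the 1 of 32 genes of RNA polymerase I and ribosome biogenesis.

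Some other genes with a clear CO2 effect had interactions near 0. The 13 mitochondrially encoded mRNAs were raised by a median of 0.62 (log2) without and 0.62 with LPS, with a median interaction of 0.05, a range of -0.03 to 0.09 and 0 with an unadjusted p under 0.05, though with SEs of up to 0.29. These values are pooled over lines, while the study reported no mitochondrial gene past its threshold in resting shNR4A3 cells. DPH5, an enzyme of diphthamide synthesis, rose by 0.74 ± 0.08 and 0.74 ± 0.09 (interaction 0.00, 95% interval -0.23 to 0.23). DPP8, a dipeptidyl peptidase, fell by 0.56 on the log2 scale in both states (0.00, -0.21 to 0.22), the splicing factor SRSF5 by 0.57 and 0.58 (-0.01, -0.26 to 0.25), and A4GALT, a glycosyltransferase, by 0.80 and 0.81 (-0.01, -0.40 to 0.38). The study picked DPH5, DPP8, SRSF5 and A4GALT from these samples for CO2 changes in all 3 lines with and without LPS. A small interaction is thus in part built in. The others picked so were SLC6A6 (-0.37 ± 0.18), SERPINH1 (0.21 ± 0.12), POLR1A (0.10 ± 0.10), CYTH2 (-0.09 ± 0.08) and RRP9 (-0.08 ± 0.08), not called. SLC16A9, a monocarboxylate transporter family member, rose by 1.36 ± 0.19 and 1.498 ± 0.16 (0.14, -0.37 to 0.64). None of 14 inflammasome, 12 prostaglandin and leukotriene or 28 glycolysis and hypoxia genes was called, with medians of -0.01, 0.06 and -0.02. NLRP3 gave -0.33 ± 0.14 (edgeR adjusted p = 0.226) and was lowered by CO2 with LPS (-0.60 ± 0.10).

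Of 36 tested genes that the study names, 4 were called above 0 and 4 below. This list was chosen on these samples and is not independent. ETS1, a transcription factor of lymphoid and myeloid cells, was 32.7 to 54.0 and 35.4 to 55.2 TPM without LPS and 31.1 to 49.0 and 47.1 to 63.0 TPM with LPS, higher at 10% within each line with LPS only. Its CO2 effects were 0.07 ± 0.06 and 0.52 ± 0.06, and its interaction 0.45 ± 0.09 (edgeR adjusted p = 0.00456). RUNX1, a haematopoietic factor, fell by 0.20 (log2) with CO2 without LPS and rose by 0.25 with LPS, an interaction of 0.46 ± 0.09.

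TNF and SLC39A8 were the others above 0. CAMK2G, SLC17A5, CACNA2D3, an auxiliary subunit of calcium channels (-0.62 ± 0.145), and LMO2, a haematopoietic cofactor (-0.41 ± 0.11), were below. LMO2 lay at the threshold (edgeR adjusted p = 0.0497) and lost its call without any of 25 single libraries (at most 0.0977). SERPINB2, a plasminogen activator inhibitor, was 7.29 to 15.1 and 14.3 to 29.4 TPM without LPS and 1.47 to 3.73 and 1.98 to 3.64 TPM with LPS, with an interaction of -0.59 ± 0.18 that was not called (edgeR adjusted p = 0.0776).

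Called genes had higher medians of length and abundance than all genes tested, and no test was made of this. Genes above 0 had a median span of 74.3 kb and exons of 6.30 kb, genes below 0 had 49.4 and 5.06 kb, and all genes tested 24.6 and 4.20 kb. The highest condition mean was a median of 43.7, 32.3 and 14.02 TPM. Length and abundance set the number of counts behind a gene and with it the power of the test, and their part in the result was not tested. TMM factors were 0.881 to 0.967 in the 18 libraries with LPS and 1.05 to 1.13 in the 18 without, so the scaling moved with LPS, and library size alone gave the other split of calls stated above. Of the 353 called genes, 207 (139 above and 68 below 0) stayed called whichever 1 library was left out. Leaving out 1 library gave between 241 and 705 calls, the highest count, 705, without shNR4A2 5% CO2 + LPS replicate 3. The count was 67 without all libraries numbered 1, 11 without those numbered 2 and 294 without those numbered 3.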

How the data were processed

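The authors sequenced polyA-selected RNA in 36 THP-1 libraries. Per their methods, trimming used Trimmomatic 0.36, alignment used STAR 2.5.2b on GRCh38, and reads per gene were counted by featureCounts (Subread 1.5.2). The annotation release and the strand setting are not given in the sources used here, so overlapping and antisense genes cannot be told apart with certainty. The deposited files hold raw counts of 57500 genes, with gene lengths, per library, and 56410 gene IDs (98.1%) matched a symbol. Groups were taken from the labels. TPM was computed here from the counts and these lengths and is used for levels, never for tests.

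Genes were filtered with filterByExpr (minimum count 10, minimum total 15), scaled by TMM and fitted with edgeR 4.0.16 (robust quasi-likelihood, R 4.3.3) in 1 model with 12 condition means and 24 residual degrees of freedom. The interaction, its value in each line and its difference between lines were contrasts of that model, with p-values adjusted by Benjamini-Hochberg over all 17720 genes. Standard errors were derived from the F statistic, and 95% intervals used a normal multiplier of 1.96. The spread between libraries was a biological coefficient of variation of 11.66%. Scripts were tested on simulated counts. Alternatives were RLE factors, library size only, other filters, DESeq2 1.42.0, voom of limma 3.58.1, a replicate block, and leaving out libraries, replicate numbers or lines.

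The genes and lists were chosen with earlier results of these data known. Named were called genes with a symbol, the same sign in all 3 lines and at least 1 TPM in a condition, the 10 with the smallest adjusted p and the 5 with the largest change in each direction, then called list members, up to 4 uncalled members of a list by p, and genes the study names. Promoter sequences were from RefSeq (GRCh38.p14), with 68.2% of the genes tested matched, which is under 80%, so the motif shares over all genes are incomplete.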

Additional observations from a re-analysis of the deposited data

Results flagged for a closer look

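Results are listed here where an effect differed between groups under the same contrast. The CO2 effect differed between cells with and without LPS in 353 genes by the test of the interaction itself (edgeR quasi-likelihood, Benjamini-Hochberg adjusted). In single lines the same test passed for STARD4 in shNR4A2 cells, with an interaction of 0.999 on the log2 scale, and for LGR4 in shNR4A3 cells, with 1.24. The interactions of STARD4 in shNT and shNR4A3 were 0.91 and 0.72, those of LGR4 in shNT and shNR4A2 were 0.83 and 0.78, and the difference between lines did not pass the adjusted threshold for either gene.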

How the results depend on the processing

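Against 353 calls (211 above and 142 below 0), no filter on low counts gave 582 (313 below), DESeq2 640 (367 and 273), an adjusted p under 0.01 94 (75 and 19) and a fold of at least 1.4 191 (127 and 64). Without the line shNT 7 were called (6 and 1), without shNR4A2 28 (23 and 5) and without shNR4A3 87 (72 and 15), from fewer libraries. RLE factors, library size only, a minimum of 1 CPM and voom gave 348, 384, 404 and 337, of which 340, 313, 347 and 328 were among the 353. In these, the filter and the DESeq2 alternatives 0 of the called genes tested changed sign. Leaving out single libraries or all libraries of 1 number gave 11 to 705 calls, 10 to 361 above and 1 to 344 below 0. The count below 0 was 344 without shNR4A2 5% CO2 + LPS replicate 3, and 84, 87, 80, 85 and 77 without replicate 2 of shNT 5% CO2 + LPS, shNT 10% CO2 + LPS, shNR4A2 5% CO2 + LPS, shNR4A2 10% CO2 + LPS and shNR4A3 5% CO2 + LPS. The causes were not tested.

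Replicate numbers are shared by the conditions, but the labels do not say that a number marks an experiment or day. Deviations correlated above 0.1 in 40 of 54 same-numbered pairs within lines (median 0.274, -0.397 to 0.634) against 20 of 108 pairs with different numbers (median -0.214), and in 106 of 144 same-numbered pairs across lines (median 0.347), with 26 of 36 libraries matching their own number best. Same-numbered libraries thus tended to deviate together, but not every pair exceeded 0.1, which was the condition for taking the pairing as given. A condition on every pair is strict, and failing it does not show that the libraries were unpaired. The main fit therefore leaves this shared deviation in the spread, and statements that a gene was not called refer to that fit. With the number as a replicate block 861 genes were called (442 and 419), including all 353, and with a block within each line 872 (435 and 437).

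In single lines, no filter gave 21, 44 and 16 calls in shNT, shNR4A2 and shNR4A3 in place of 0, 1 and 1. DESeq2 gave 6 in shNT and 14 in shNR4A2, the replicate block 7 and the block within line 6 in shNR4A2. The 12 libraries of a line alone gave 4 in shNT and 0 in the others, voom and an adjusted p under 0.01 gave 0 in shNR4A2 and shNR4A3, and library size only gave 0 in shNR4A3. Leaving out libraries gave 0 to 1 in shNT, 0 to 29 in shNR4A2 (29 without shNR4A2 5% CO2 + LPS replicate 3) and 0 to 1 in shNR4A3. The CO2 effect without LPS passed in 1041, 2006 and 1299 genes without shNT, shNR4A2 and shNR4A3, in 1535 at an adjusted p under 0.01, in 620 with the fold and in 843 to 3222 with libraries left out. With LPS it passed in 3009 without shNT, 3206 without shNR4A3, 3244 at 0.01, 1493 with the fold and 1872 to 5533 with libraries left out. The share with the same sign in held-out shNR4A3 was 91.94% to 98.25%.

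Of 52 called named genes, 42 kept the call without any 1 library. CRACDL and PLK2 lost it with voom, DUSP14, SLC39A8 and TNIP1 with no filter, IRAK2 and SOCS3 with both, LMO2 with RLE factors and voom, TMEM121 with DESeq2 and VLDLR with library size only. SERPINB2 became called without 2 single libraries (lowest adjusted p 0.0311).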

Other observations

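Called genes outside the lists, chosen after their values were seen, included transcription factors. IKZF1 (Ikaros) had an interaction of 0.75 ± 0.12 (log2, SE), with CO2 effects of -0.01 without and 0.73 with LPS. HIVEP1 and HIVEP2, zinc finger proteins that bind kB-like sites, had 0.80 ± 0.14 and 1.12 ± 0.21, POU2F2 1.11 ± 0.21, STAT5A 0.94 ± 0.18 and NFE2L3 1.01 ± 0.18. In HIVEP1 and POU2F2 CO2 lowered the transcript without LPS (-0.39 and -0.47) and raised it with LPS (0.42 and 0.64). FLI1 and MYB were below 0, at -0.44 ± 0.10 and -0.42 ± 0.11.

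Signalling genes stood on both sides. MAP3K8, a kinase that activates MEK after TLR4, had 1.23 ± 0.27, RIPK2, the kinase downstream of NOD receptors, 0.60 ± 0.13, the Src-family kinase LYN 0.78 ± 0.14, and TLR2 0.32 ± 0.08. NOD1 had -0.66 ± 0.16, MAPK14 (p38 alpha) -0.37 ± 0.08, and TAB1, another partner of TAK1, -0.39 ± 0.10, beside TAB2 at 0.47 ± 0.09. Other receptors below 0 were P2RY6 at -0.60 ± 0.14, CYSLTR1 at -0.39 ± 0.10, LILRA2 at -0.43 ± 0.10 and CD300A at -0.61 ± 0.16. Regulators of cell death that restrain it, CFLAR (0.51 ± 0.10) and BCL2L1 (0.53 ± 0.12), and that promote it, BCL2L11 (0.54 ± 0.12) and BMF (0.83 ± 0.16), were both above 0. BMF was lowered by CO2 without LPS (-0.78 ± 0.11) and gave 0.04 ± 0.11 with LPS. Of the genes in these paragraphs, MYB, TLR2, TAB1, CYSLTR1 and CD300A lost the call without at least 1 single library, and the others kept it without any.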
